A study of Homo sapiens with 6 samples.

Results

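The insulin-like growth factor (IGF) and insulin receptor axis was examined in LY2 cells through 8 genes chosen by name: the receptors IGF1R, INSR and IGF2R, the receptor adaptors IRS1 and IRS2, and the binding proteins IGFBP2, IGFBP4 and IGFBP5. All 8 were present among the 17939 genes of the expression table. LY2 is an estrogen receptor-positive (ER+), tamoxifen-resistant breast cancer cell line. Total RNA was sequenced from cells transfected with an siRNA pool that targets CDK12, at 30 nmol/L (siCDK12), and from cells transfected with the same amount of a non-targeting pool (siCtrl), 3 libraries in each group. Both groups were transfected with Lipofectamine 2000 after a period of serum deprivation in medium without 4-hydroxytamoxifen and were harvested 48 hours later. The knockdown was transient, used 1 pool of siRNAs and 1 cell line, and the study describes the libraries as biological replicates. Levels are given in FPKM, fragments per kilobase of transcript scaled to the mapped fragments of the library, which allows levels of different genes to be set side by side. In bulk RNA, fewer cells carrying a transcript and less transcript per cell cannot be told apart.

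IGF1R and INSR are related receptor tyrosine kinases that bind IGFs and insulin at the cell surface and can pair with each other. Activated receptors phosphorylate IRS1 and IRS2, docking proteins that recruit PI3K and so switch on AKT and mTOR. IGF2R has no kinase; it carries mannose 6-phosphate-tagged enzymes to lysosomes and clears IGF2 from the cell surface. IGF binding proteins are secreted and hold IGFs in the extracellular fluid, where proteases release them again. In ER+ breast cancer cells estrogen is known to raise IGF1R, IRS1 and IGFBP4 transcripts, and IGF signalling and ER signalling are known to reinforce each other.

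CDK12 transcript was measured at 2.23, 2.83 and 2.44 FPKM with siCDK12, against 11.17, 10.7 and 10.3 FPKM with siCtrl, so that every library matched its label. Libraries held 11488 to 11538 genes at 1 FPKM or above, and their FPKM sums ranged from 448633 to 461038. All 8 luminal epithelial markers checked stood at 39.4 FPKM or more in every library. Of the markers of other cell types, KRT14, LUM, THY1, CDH5 and CD3E were listed at 0 in all 6 libraries. The endothelial markers summed to 0.15 to 0.25 FPKM with siCDK12 and 0.13 to 0.22 with siCtrl, and the leukocyte markers to 0.74 to 0.8 and 0.57 to 1 FPKM. The summed fibroblast list was somewhat higher with siCDK12, 10.72 to 11.22 against 7.78 to 8.64 FPKM, nearly all of it COL1A1, and the summed luminal list was 5257 to 5373 against 4830 to 4868 FPKM. Most of the luminal difference came from KRT8 and KRT18, which passed the test as higher. GATA3 (0.21 on the log2 scale) and CDH1 (0.35) also passed as higher. ESR1 was lower (-0.33), and FOXA1, KRT19 and EPCAM did not pass the test. The part of these marker lists in the results was not tested. The summed basal list ranged from 10.37 to 10.63 FPKM with siCDK12 and from 9.85 to 10.79 FPKM with siCtrl, nearly all of it ACTA2 and TP63. TP63 passed the test as lower (-0.32 on the log2 scale) and ACTA2 did not pass (0.09).

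CDK12 knockdown lowered IGFBP4 and IRS1 and left no other member past the test. Testing with limma took in genes averaging 1 FPKM or more, and a gene was called at a Benjamini-Hochberg adjusted p under 0.05 over the 11533 genes tested. Of the 8 members, 6 were tested: 2 were lower with siCDK12, 0 were higher and 4 did not pass. Over all genes tested, 28.3% were called, 12.3% as lower and 16.1% as higher. Of the calls, 56.7% were rises, a share that became 45.1% with median-ratio scaling of the libraries (1376 higher and 1673 lower). The 2 calls are 33.3% of the tested members, close to the share over all genes. The median log2 fold change of the tested members was -0.16, beside 0.03 over all genes tested. Without adjustment for the number of genes, IRS2 and IGFBP2 would also have passed 0.05 as lower and IGFBP5 as higher. IGF1R and INSR lay under the filter and are described by their levels.

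**Figure D1:**
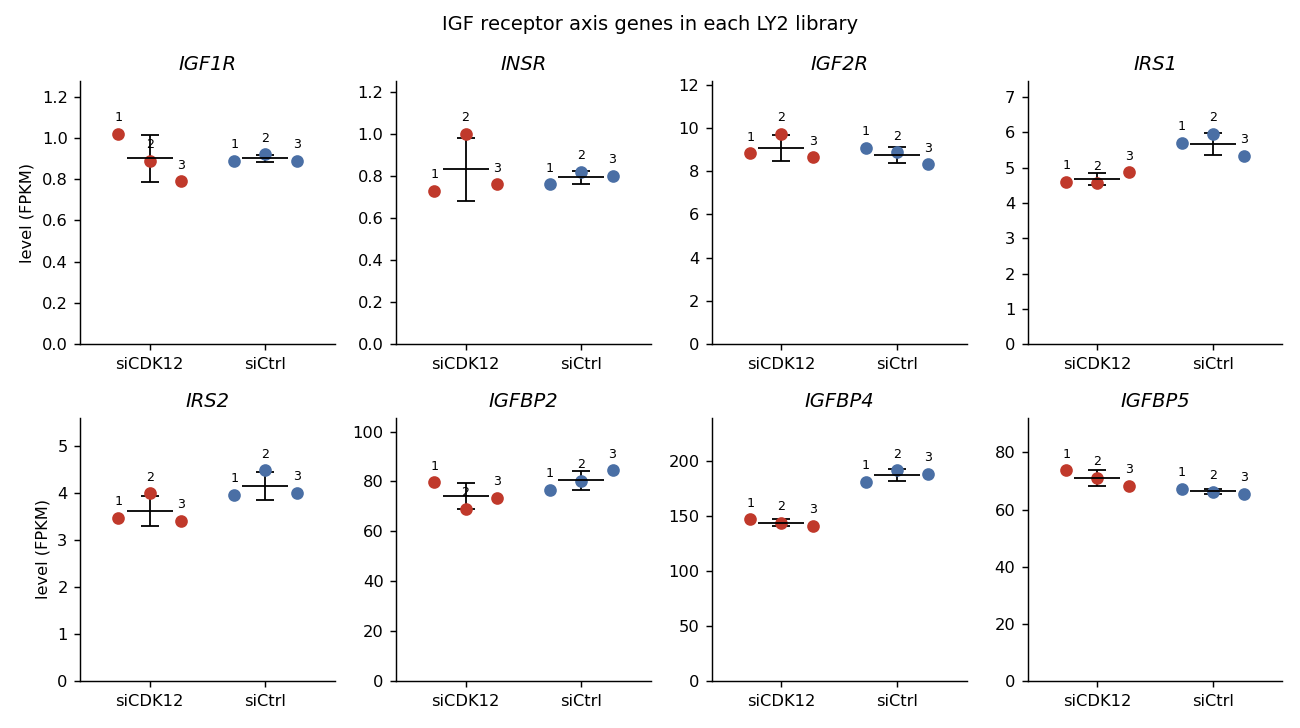
Level of each of the 8 genes in FPKM (vertical axes from 0) in the 3 siCDK12 and 3 siCtrl libraries; points are libraries with their replicate number, and bars show mean and SD. The groups are separate for IRS1, IGFBP4 and IGFBP5 and overlap for the other 5 genes.

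The levels spanned a wide range. IGFBP4 was the most abundant of the 8, above 97.2% of all genes in the siCDK12 libraries and above 98.0% in the siCtrl libraries by mean level, followed by IGFBP2 and IGFBP5. IGF2R stood near 9 FPKM, IRS1 and IRS2 between 3.41 and 5.96 FPKM, and IGF1R and INSR at 1.02 FPKM or less in every library. IRS1 was above IRS2 in all 6 libraries. IGFBP2 and IGFBP5 overlapped in level with siCDK12, where replicate 2 had more IGFBP5 (71.0 FPKM) than IGFBP2 (69.1 FPKM), and did not overlap with siCtrl. IGF1R and INSR overlapped in level with siCDK12 and not with siCtrl.

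Both signalling receptors were scarce, and neither moved by more than its spread. IGF1R, the type 1 IGF receptor (GRCh38 chromosome 15, 98648539 to 98964530), measured 1.02, 0.89 and 0.79 FPKM with siCDK12, against 0.89, 0.92 and 0.89 FPKM with siCtrl. Both group means were 0.9 FPKM, with an SD of 0.115 with siCDK12 and 0.0173 with siCtrl (n = 3 each). Replicate 1 with siCDK12 was the highest of the 6 libraries and replicate 3 the lowest, so that the siCDK12 libraries lay on both sides of the controls. When the filter was relaxed to a mean of 0.5 FPKM, a step chosen after the values were seen, IGF1R had a log2 fold change of -0.0062 (limma 95% interval -0.33 to 0.31, adjusted p = 0.982).

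INSR, the insulin receptor (chromosome 19, 7112265 to 7294414), stood at 0.73, 1.0 and 0.76 FPKM with siCDK12 against 0.76, 0.82 and 0.8 FPKM with siCtrl. Replicate 2 with siCDK12 was above every other library and the remaining siCDK12 libraries were at or below the controls. Means were 0.83 ± 0.148 and 0.793 ± 0.0306 FPKM (SD, n = 3 each), and the relaxed filter gave a log2 fold change of 0.05 (limma 95% interval -0.31 to 0.40, adjusted p = 0.859). Its row sums 2 transcripts, so that the receptor isoforms A and B were not told apart. The within-library ratio of IGF1R to INSR was 1.4, 0.89 and 1.04 with siCDK12 and 1.17, 1.12 and 1.11 with siCtrl, and did not pass an exact two-sided permutation test (p = 0.7).

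IGF2R, the IGF2 clearance and lysosomal sorting receptor (chromosome 6, 159969082 to 160111504), stood at 8.83, 9.73 and 8.63 FPKM with siCDK12 against 9.07, 8.86 and 8.32 FPKM with siCtrl. The groups overlapped, with siCDK12 replicate 2 the highest library. The log2 fold change was 0.05 (SE 0.0617, limma 95% interval -0.09 to 0.19, adjusted p = 0.589), and it was -0.0024 without siCDK12 replicate 2 (adjusted p = 0.984; 0.429 to 0.984 over its 17 alternatives).

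IRS1 fell with CDK12 knockdown. IRS1, the main docking protein of IGF1R signalling in ER+ breast cancer cells (chromosome 2, 226731312 to 226799820), stood at 4.59, 4.57 and 4.87 FPKM with siCDK12, against 5.71, 5.96 and 5.33 FPKM with siCtrl. Every siCDK12 library was below every siCtrl library. The mean was 4.68 ± 0.168 FPKM with siCDK12 and 5.67 ± 0.317 FPKM with siCtrl (SD, n = 3 each), 82.5% of the control level. The log2 fold change was -0.27 (SE 0.0676, limma 95% interval -0.42 to -0.12, adjusted p = 0.0131). The call was lost without siCtrl replicate 2, the highest library, at a log2 fold change of -0.23 and an adjusted p of 0.0522 (0.00704 to 0.0522 over its 17 alternatives).

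IRS2, the related adaptor (chromosome 13, 109752695 to 109786583), stood at 3.48, 4.0 and 3.41 FPKM with siCDK12 against 3.97, 4.49 and 4.01 FPKM with siCtrl. Only siCDK12 replicate 2 reached into the range of the controls. Its log2 fold change of -0.19 (SE 0.0859, limma 95% interval -0.38 to -0.0028) did not pass after adjustment (adjusted p = 0.119). The ratio of IRS1 to IRS2 within a library averaged 1.3 ± 0.144 with siCDK12 and 1.36 ± 0.0635 with siCtrl (SD, n = 3 each; exact two-sided permutation p = 0.4), so that a difference between the changes of the 2 adaptors was not shown.

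IGFBP4 fell more than any other member tested. IGFBP4, an IGF binding protein that mostly restrains IGF action (chromosome 17, 40443450 to 40457725), stood at 147.23, 144.08 and 141.47 FPKM with siCDK12, against 181.61, 191.79 and 188.77 FPKM with siCtrl. The groups were far apart relative to their spread, with 144.3 ± 2.88 FPKM with siCDK12 and 187 ± 5.23 FPKM with siCtrl (SD, n = 3 each), 77.0% of the control level. The log2 fold change was -0.38 (SE 0.0343, 95% interval -0.45 to -0.30, limma adjusted p = 3.27e-05). The call held in all 17 alternatives (adjusted p from 1.25e-05 to 0.00165). The study had picked this gene out on these same samples, so that its fall is not independent evidence of a direction. By chromatin immunoprecipitation the study also reported lower ER binding at IGFBP4 after CDK12 knockdown, which these RNA data do not measure. It further reported CDK12, ER and the co-activator MED1 at the gene. ESR1, which encodes the ER, had 40.4 ± 1.29 FPKM with siCDK12 and 50.9 ± 1.58 FPKM with siCtrl (SD, n = 3 each), 79.3% of the control level.

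IGFBP2 and IGFBP5 are neighbours on chromosome 2 (216632828 to 216664436 and 216672105 to 216695549), read towards each other with 7.67 kb between them. IGFBP2, which binds IGF2 with preference, stood at 79.67, 69.11 and 73.43 FPKM with siCDK12 against 76.72, 80.34 and 84.44 FPKM with siCtrl. The groups overlapped through siCDK12 replicate 1, which lay above siCtrl replicate 1. The log2 fold change of -0.12 (SE 0.0532) did not pass (limma adjusted p = 0.112). Without siCDK12 replicate 1 it was -0.18 and passed (adjusted p = 0.0329; 0.0329 to 0.355 over its 17 alternatives).

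IGFBP5, a binding protein that also attaches to extracellular matrix, stood at 73.7, 71.0 and 68.29 FPKM with siCDK12 against 67.16, 66.23 and 65.53 FPKM with siCtrl. Every siCDK12 library was above every siCtrl library, by a small margin. The log2 fold change was 0.10 (SE 0.0373, limma 95% interval 0.016 to 0.18) and did not pass after adjustment (adjusted p = 0.0724), nor in any of its 17 alternatives (0.0551 to 0.226). Non-overlapping groups were seen in 3 of the 8 members, 2 lower and 1 higher; among all genes tested 43.1% did not overlap, 17.8% lower and 25.4% higher with siCDK12. With 3 libraries a side an exact two-sided permutation test cannot go below p = 0.1, the value each of these 3 genes had.

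**Figure D2:**
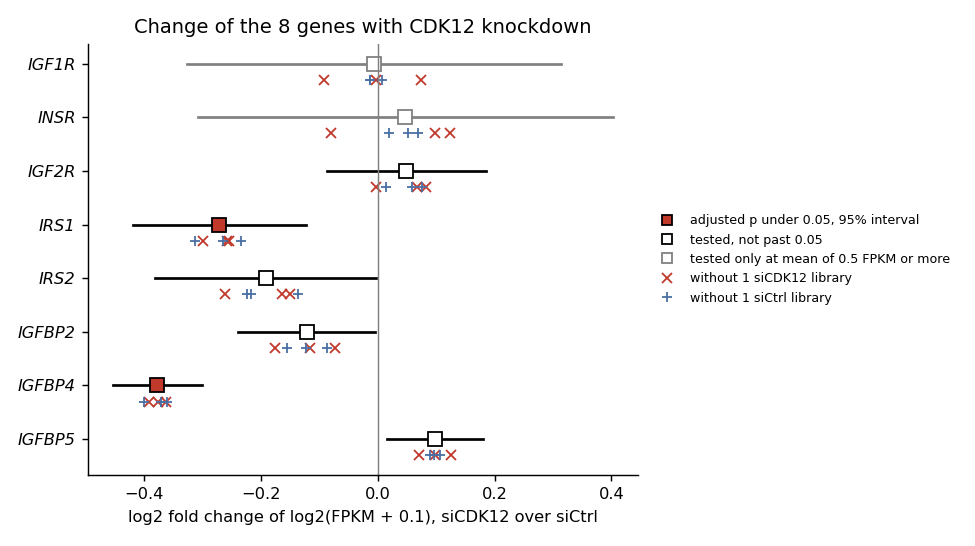
Log2 fold change, siCDK12 over siCtrl, of the 8 genes on the log2(FPKM + 0.1) scale; squares are limma estimates, horizontal lines their 95% intervals, and crosses the estimates with 1 library left out. IGFBP4 (-0.38) and IRS1 (-0.27) are filled as called; IGF1R and INSR have the widest intervals.

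The stretches just before the transcription start are shown for IGFBP4 and IRS1, the 2 called members, and for IGFBP5, which had no call. These 3 stretches were chosen by the values of their genes here, and a link between motif and change was not tested. They are 250 bases each, from RefSeq on GRCh38.p14, on the strand of the gene and ending at the base before the start, at chr17:40443200-40443449 (plus strand), chr2:226799821-226800070 (minus strand) and chr2:216695550-216695799 (minus strand). Capitals mark matches to a GC box (GGGCGG, bound by SP1 family factors, either strand) or a TATA box (TATAAA, either strand).
IGFBP4: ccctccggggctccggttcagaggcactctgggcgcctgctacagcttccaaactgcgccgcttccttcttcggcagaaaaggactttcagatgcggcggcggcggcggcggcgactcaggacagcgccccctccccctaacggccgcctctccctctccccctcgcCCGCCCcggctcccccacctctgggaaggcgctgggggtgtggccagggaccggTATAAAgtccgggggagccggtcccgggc
IRS1: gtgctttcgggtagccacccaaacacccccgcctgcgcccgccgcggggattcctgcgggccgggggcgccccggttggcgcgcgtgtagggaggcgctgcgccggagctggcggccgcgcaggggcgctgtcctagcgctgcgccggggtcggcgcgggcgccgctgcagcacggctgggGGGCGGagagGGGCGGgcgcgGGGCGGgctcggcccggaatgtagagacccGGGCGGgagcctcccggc
IGFBP5: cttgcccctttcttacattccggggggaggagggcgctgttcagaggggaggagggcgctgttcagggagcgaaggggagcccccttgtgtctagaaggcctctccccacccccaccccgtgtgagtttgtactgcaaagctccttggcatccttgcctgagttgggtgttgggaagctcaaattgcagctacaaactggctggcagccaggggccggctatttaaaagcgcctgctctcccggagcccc
IGFBP4 had 1 TATA box, at bases -29 to -24 before the start, and 1 GC box at -83 to -78. IRS1 had 4 GC boxes between -69 and -13 and no TATA box. IGFBP5 had no exact match to either motif in this window. Only exact letters were searched, so a similar run such as tatttaaaa near the end of the IGFBP5 stretch was not counted. Members without a call had GC boxes too: IGF2R had 6, IRS2 5, INSR 4 and IGF1R 2, and IGFBP2 had 1 in each of 2 of its 3 windows. Of 35116 RefSeq windows of this length, 42.6% held a GC box and 10.7% a TATA box. A full estrogen response element (GGTCA, any 3 bases, TGACC) was found in 0.0399% of windows and in none of the 10 windows of the 8 members. A single arm of it (GGTCA, either strand, which the full element contains) was found in 32.6% of windows, and among the members in IGF2R (2 matches) and 1 window of IGFBP2. IGF2R also had 3 matches to the E-box CACGTG, which 6.34% of windows held. Such matches describe letters in a window and not binding.

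The ratios between the 3 abundant binding proteins differed between the groups of these libraries, without passing a test. Ratios taken within a library do not move with its scaling. IGFBP4 to IGFBP5 was 2.0, 2.03 and 2.07 with siCDK12 against 2.7, 2.9 and 2.88 with siCtrl, with no overlap. IGFBP4 to IGFBP2 averaged 1.95 ± 0.121 with siCDK12 and 2.33 ± 0.0824 with siCtrl, and IGFBP5 to IGFBP2 averaged 0.961 ± 0.0577 and 0.825 ± 0.0497 (SD, n = 3 each). All 3 ratios separated the groups, as 43.1% of single genes tested did, and they rest on the same 3 genes. Each had an exact two-sided permutation p of 0.1, the smallest possible, and 0.167 after adjustment over the 5 ratios compared. The design could therefore not bring them past 0.05.

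**Figure D3:**
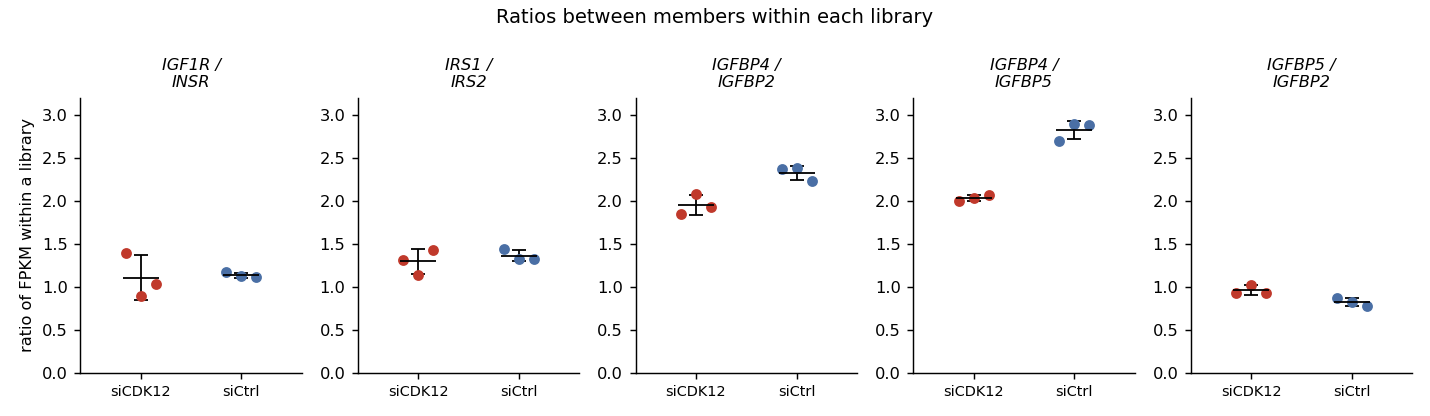
Ratios of FPKM between pairs of members within each library (vertical axis from 0), siCDK12 left of siCtrl; points are libraries, bars mean and SD. IGFBP4 to IGFBP5 lies at 2.0 to 2.07 with siCDK12 and 2.7 to 2.9 with siCtrl, and the IGF1R to INSR and IRS1 to IRS2 ratios overlap.

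Across the classical family, IGFBP1 to IGFBP7, the summed level was 300.2 ± 9.34 FPKM with siCDK12 and 347 ± 7.93 FPKM with siCtrl (SD, n = 3 each). IGFBP2, IGFBP4 and IGFBP5 made up 96.0% to 96.7% of that sum with siCDK12 and 96.4% to 96.5% with siCtrl. IGFBP4 alone took 47.3%, 48.9% and 47.9% with siCDK12 against 53.8%, 54.7% and 53.7% with siCtrl. IGFBP3, the main carrier of IGFs in serum, had 9.72 ± 0.758 FPKM with siCDK12 and 10.7 ± 0.354 FPKM with siCtrl and did not pass (log2 fold change -0.14, limma adjusted p = 0.115). IGFBP1 was scarce but had the largest fold difference of the family. It stood at 0.27, 0.24 and 0.16 FPKM with siCDK12 against 0.82, 0.71 and 1.16 FPKM with siCtrl, 24.9% of the control level. IGFBP1 lay under the main filter and was singled out after its values were seen; it passed the relaxed filter only through the siCtrl libraries, where it is high. With that filter its log2 fold change was -1.61 (limma adjusted p = 0.000817, with 26.8% of 12324 genes called), and with no filter its adjusted p was 0.00347. IGFBP6 had 1.06, 0.54 and 1.13 FPKM with siCDK12 against 0.73, 0.8 and 0.59 FPKM with siCtrl, overlapping groups, and IGFBP7 was at 0.06 FPKM or less in every library.

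**Figure D4:**
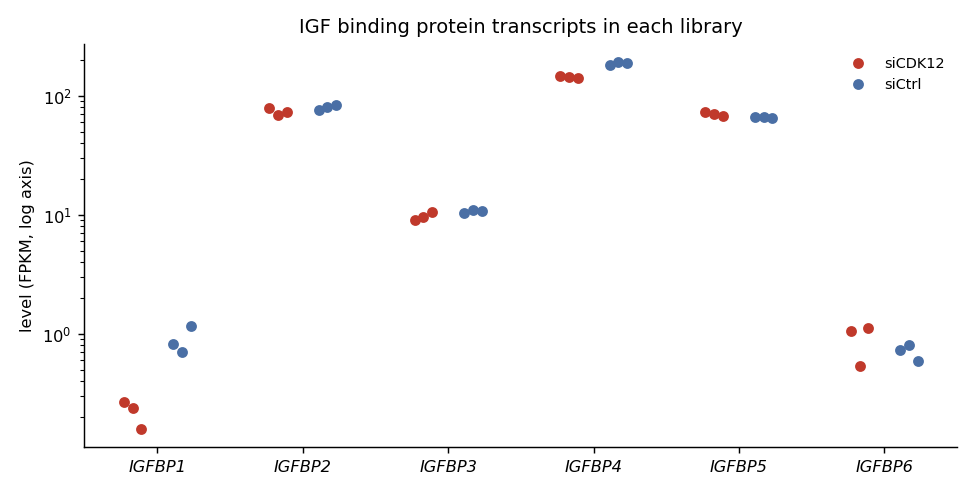
Level of IGFBP1 to IGFBP6 in FPKM on a log axis, 3 siCDK12 libraries left of 3 siCtrl libraries for each gene; IGFBP7, listed at 0 in 4 libraries, is left out. IGFBP1 lies at 0.16 to 0.27 FPKM with siCDK12 and 0.71 to 1.16 FPKM with siCtrl.

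Of the proteins that act on IGF binding proteins, HTRA1, a secreted protease that cleaves several of them, rose to 15.3 ± 0.33 FPKM with siCDK12, against 13.2 ± 0.655 FPKM with siCtrl (SD, n = 3 each; log2 fold change 0.21, limma adjusted p = 0.00948). STC2, a stanniocalcin that inhibits the IGFBP4 protease PAPPA, rose to 37.0 ± 1.17 FPKM, against 32.7 ± 0.706 FPKM with siCtrl (0.18, limma adjusted p = 0.00743). PAPPA itself was at 0.02 FPKM or less in every library. Of the 8 binding protein and protease genes tested, 2 were higher and 1, IGFBP4, was lower. Without siCDK12 replicate 1, or without siCDK12 replicate 3, 2 of this list were lower. The number lower was also 2 with no filter and with the filter relaxed to a mean of 0.5 FPKM.

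Among the ligands, IGF2 was the only one tested. It stood at 2.68, 2.4 and 2.6 FPKM with siCDK12 against 3.24, 3.16 and 2.93 FPKM with siCtrl, with no overlap, and fell by 0.27 on the log2 scale (limma adjusted p = 0.0369). This call was lost in 6 of 16 alternatives (adjusted p from 0.018 to 0.111): without siCDK12 replicate 2 (0.109) or 3 (0.0752), without siCtrl replicate 1 (0.111) or 2 (0.0952), with a replicate block (0.0583) and with no filter (0.0685). The read-through gene INS-IGF2, whose reads could be shared with IGF2, was listed at 0 in 5 libraries and at 0.08 FPKM in the other. IGF1 was at 0.05 FPKM or less in every library and INS at 0.15 FPKM or less. Of the 3 IGF2 mRNA binding proteins only IGF2BP2 was tested and it did not pass (log2 fold change -0.26); without siCDK12 replicate 1 it passed.

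The receptor adaptors, with IRS1 and IRS2 among them, moved in both directions. Of 16 adaptors tested, 6 were higher and 2, GRB10 and IRS1, were lower. Without IRS1 and IRS2, 14 were tested, of which 6 were higher and 1, GRB10, was lower. GRB10, an adaptor that binds IGF1R and INSR and dampens their signal, stood at 1.41, 1.7 and 1.43 FPKM with siCDK12 against 2.34, 2.44 and 2.37 FPKM with siCtrl. Its groups were well apart, at 63.5% of the control level (log2 fold change -0.63, limma adjusted p = 0.00162, called in all 16 of its alternatives). SOS2, a RAS exchange factor (0.21, adjusted p = 0.00757), and SH2B1, an adaptor that promotes insulin signalling (0.25, adjusted p = 0.0085), rose. IRS4, another member of the IRS family, was at 0.87, 0.85 and 0.98 FPKM with siCDK12 against 1.1, 1.1 and 0.95 FPKM with siCtrl and did not pass with the relaxed filter (adjusted p = 0.307).

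Downstream of the adaptors, the regulatory subunits of PI3K moved in both directions, 1 lower and 2 higher. PIK3R1, which encodes p85-alpha, fell to 15.46, 15.27 and 14.28 FPKM with siCDK12, against 18.85, 19.74 and 17.63 FPKM with siCtrl (log2 fold change -0.32, limma adjusted p = 0.00155). PIK3R3, which encodes the p55-gamma subunit, rose to 27.1 ± 0.269 FPKM, against 22.2 ± 0.902 FPKM with siCtrl (SD, n = 3 each; 0.29, limma adjusted p = 0.000707). PIK3R2, another regulatory subunit and the most abundant of them, rose to 112.8 ± 4.51 FPKM, against 101.9 ± 3.2 FPKM with siCtrl (0.15, limma adjusted p = 0.0193). PIK3C2B, a class II PI3K, also rose (0.30, adjusted p = 0.00819). In all, 3 of 11 genes in this list were higher and 2 lower.

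Of 9 AKT-branch genes tested, 2 were higher and 2 lower. TRIB1 (0.31, limma adjusted p = 0.00131) and TRIB3 (0.27, adjusted p = 0.00272), Tribbles pseudokinases that can bind AKT, rose, and AKT1 itself did not pass (0.07, adjusted p = 0.113). SGK3, a kinase related to AKT, fell (-0.82, adjusted p = 0.00597), but it reached the mean of 1 FPKM only through the siCtrl libraries (0.873 FPKM with siCDK12 and 1.58 FPKM with siCtrl). It also shares sequence with the read-through gene C8orf44-SGK3. Their summed level was 1.17, 1.23 and 1.41 FPKM with siCDK12 against 1.96, 1.97 and 1.57 FPKM with siCtrl. The number lower in this list was 1 without siCDK12 replicate 2 or 3 or siCtrl replicate 2 or 3, with a replicate block or with no filter, and 0 at a minimum of 5 FPKM.

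Most of the mTOR list did not pass. Of 15 genes tested, 0 were higher by limma and 2 were lower (before adjustment at 0.05, 1 higher, TSC2, and 2 lower). EIF4EBP2, a translation repressor that mTOR phosphorylates, fell to 24.9 ± 0.629 FPKM with siCDK12, against 32.0 ± 1.11 FPKM with siCtrl (SD, n = 3 each; log2 fold change -0.36, adjusted p = 0.000155). MLST8, an mTOR complex subunit, was lower by less (-0.13, adjusted p = 0.0199). Its call was lost in 5 of 17 alternatives (0.0105 to 0.079), without siCDK12 replicate 2 (0.079) or 3 (0.061), siCtrl replicate 2 (0.0546) or 3 (0.0531) and with no variance trend (0.0637).

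Among the outputs of AKT, FOXO3, a transcription factor that AKT keeps out of the nucleus, stood at 6.09, 6.14 and 6.14 FPKM with siCDK12 against 9.09, 9.58 and 8.82 FPKM with siCtrl. It fell by 0.57 on the log2 scale (limma adjusted p = 4.77e-05). FOXO1 and FOXO4 did not pass (0.11 and 0.14). FOXO6 was lower without overlap of the groups and did not pass either (-0.22, limma adjusted p = 0.0761). BAD, a pro-apoptotic BCL2 family member (0.21, adjusted p = 0.00273), and GSK3A, a kinase that AKT inhibits (0.20, adjusted p = 0.00517), rose. In all 3 of 7 genes were higher and 1 was lower. The number lower was 2 with quantile normalization or with no variance trend.

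In the RAS and MAPK arm, 1 of 10 genes was higher and 2 were lower. NRAS stood at 122.72, 123.43 and 123.39 FPKM with siCDK12 against 164.8, 162.44 and 161.21 FPKM with siCtrl, a narrow spread within each group (log2 fold change -0.40, limma adjusted p = 1.15e-05). MAP2K2, which encodes the kinase MEK2, fell (-0.19, adjusted p = 0.00179), and MAP2K1, which encodes MEK1, rose (0.15, adjusted p = 0.0291). The call of MAP2K1 was lost in 7 of 17 alternatives (0.022 to 0.0918): with median-ratio scaling (0.0598), no variance trend (0.0581) or a replicate block (0.0579), and on leaving out siCDK12 replicate 1 (0.0918) or 3 (0.0771), siCtrl replicate 1 (0.0709) or 3 (0.0871). HRAS and BRAF did not pass.

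The mannose 6-phosphate sorting route that IGF2R serves held 2 rises and 0 falls by limma among 8 genes tested (0 lower also before adjustment at 0.05). NAGPA, the enzyme that uncovers the mannose 6-phosphate tag, stood at 15.35, 13.12 and 13.64 FPKM with siCDK12 against 10.04, 10.55 and 10.89 FPKM with siCtrl (log2 fold change 0.41, limma adjusted p = 0.000857). GNPTAB, part of the enzyme that attaches the tag, rose by less (0.15, adjusted p = 0.026). Its call was lost in 5 of 17 alternatives (0.0238 to 0.0876): with median-ratio scaling (0.0548) and on leaving out siCDK12 replicate 1 (0.0612) or 2 (0.0876), siCtrl replicate 2 (0.0606) or 3 (0.081). M6PR, the other mannose 6-phosphate receptor, did not pass (0.07, adjusted p = 0.195).

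Over the whole list of 110 IGF and insulin pathway genes, 87 were tested, of which 19 were higher, 13 lower and 55 did not pass, with a median log2 fold change of 0.02. Leaving out the 8 members, 81 were tested, with 19 higher (23.5%) and 11 lower (13.6%). Over all genes tested, 16.1% were higher and 12.3% lower.

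**Figure D5:**
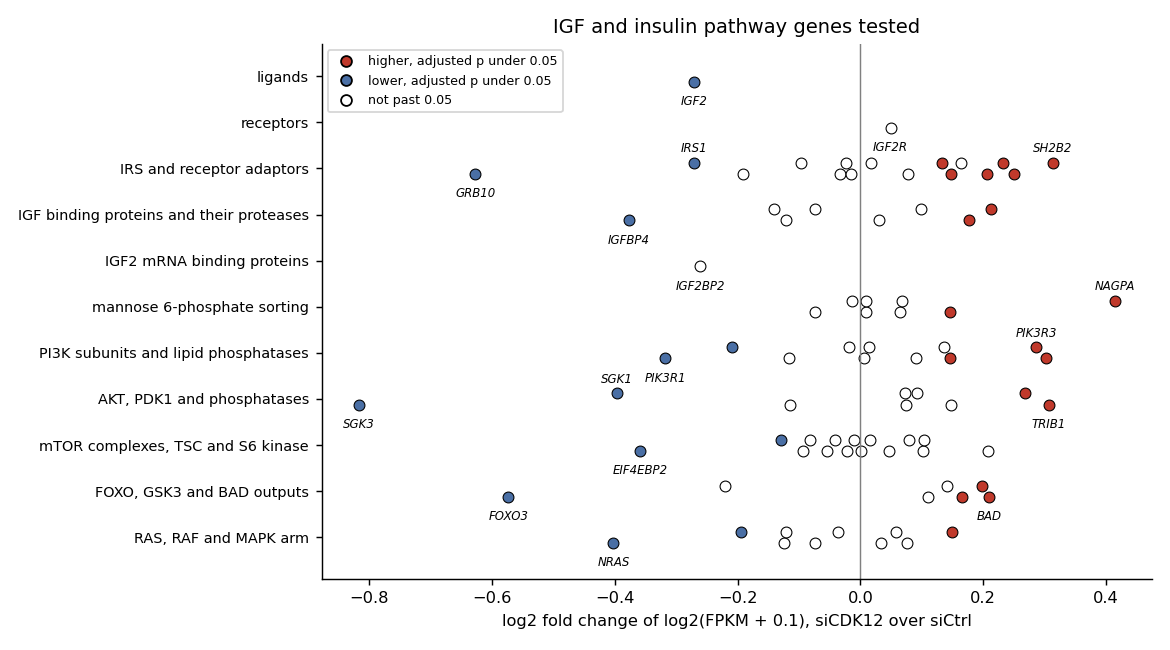
Log2 fold change, siCDK12 over siCtrl, of the 87 IGF and insulin pathway genes tested, by role; each point is a gene, filled where its adjusted p was under 0.05 (19 higher, 13 lower). SGK3, GRB10 and FOXO3 lie farthest to the left and NAGPA farthest to the right.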

How the data were processed

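RNA was sequenced paired-end on the BGISEQ-500. SOAPnuke served for read cleaning; Bowtie2, RSEM, DESeq2 and GRCh38 are listed in the submitters' processing notes. The deposited values are FPKM for each gene in each library, rounded to 0.01, so whole reads were not recovered. FPKM gives no depth, so no counting intervals were computed. Columns were matched to libraries by library name.

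R 4.3.3 and limma 3.58.1 were used on log2(FPKM + 0.1) for genes averaging 1 FPKM or more, a scale that understates changes of low genes, with a variance trend, two-sided. The same steps were tested on simulated data. The members and gene lists were chosen with earlier results of these data known, and the promoter motifs after the promoters were seen. Named were the 8 members, CDK12, up to 3 called genes with the smallest p per list, called neighbours, and the closest correlate of each called member. Further genes, among them PIK3R2 and cell type markers, were named beside them for context.

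Positions came from RefSeq GRCh38.p14, in which 17908 gene IDs of the table were found. RefSeq lists 10 other genes overlapping IGF1R (4), INSR (1), IGF2R (3) and IGFBP5 (2), with 0 of them in the table. The sources used here do not state whether counting used strand, so their reads could not be told apart. Alternatives were other pseudocounts (1, 0.01), filters (none, 5 FPKM and, added after seeing the data, 0.5 FPKM), equal sums, median-ratio or quantile scaling, other variance estimates, a replicate block and leaving out each library. Figures were drawn with matplotlib 3.10.9. Some genes of the lists are not reported here by name.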

Additional observations from a re-analysis of the deposited data

How the results depend on the processing

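IGFBP4 kept its direction and its call under every alternative run. With any library left out, 1 to 3 of the 8 members were lower and 0 higher, with log2 fold changes from -0.40 to -0.36 for IGFBP4, -0.31 to -0.23 for IRS1, -0.18 to -0.073 for IGFBP2, 0.07 to 0.13 for IGFBP5 and -0.0024 to 0.083 for IGF2R. Without siCDK12 replicate 2 the sign turned for IGF2R (-0.0024), INSR (-0.08) and the log2 ratios of IGF1R to INSR (0.078) and IRS1 to IRS2 (0.007), and IGF1R turned positive without siCDK12 replicate 3 (0.075) or siCtrl replicate 2 (0.0081); none of these 5 values had passed a test. The loss of IRS1 came without siCtrl replicate 2 (-0.23, 1 member lower) and the gain of IGFBP2 without siCDK12 replicate 1 (-0.18); the cause was not tested. Over all genes, 1207 to 1603 were higher with a library left out, the fewest without siCDK12 replicate 3, and 1059 to 1196 were lower. Libraries with the same replicate number did not deviate together (correlations of -0.0029, 0.02 and -0.028 for replicates 1, 2 and 3). Over pairs with different numbers the correlations ran from -0.096 to 0.096. The labels do not say whether libraries shared a batch. With a replicate block 1550 genes were higher and 1208 lower, against 1853 and 1416 without it; 2 members stayed lower, IRS1 at an adjusted p of 0.0316 and IGFBP4 at 0.000486, and no call of a member changed. IGF1R and INSR, near 1 FPKM, are where precision limits most. IRS2 was not tested at a minimum of 5 FPKM.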

Other observations

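Genes next to the members in the genome mostly did not pass the test, as was so for all genes tested, of which 28.3% were called. ARRDC4, an arrestin-domain protein and the nearest tested gene on 1 side of IGF1R at 675 kb, was higher with siCDK12 (5.69 ± 0.22 against 4.79 ± 0.311 FPKM, SD, n = 3 each; log2 fold change 0.24, limma adjusted p = 0.0235), a call lost in 5 of 17 alternatives (0.0183 to 0.0771), among them without siCDK12 replicate 1 (0.0771) or 3 (0.0635) or siCtrl replicate 2 (0.0643) or 3 (0.0723). SMARCE1, a chromatin remodelling subunit 167 kb from IGFBP4, was higher by 0.11 (adjusted p = 0.0319), a call lost in 8 of 17 alternatives (0.0304 to 0.113), among them without siCDK12 replicate 2 (0.0824) or 3 (0.113) or siCtrl replicate 2 (0.09) or 3 (0.0709), and TOP2A, 25.6 kb from IGFBP4 on the other side, did not pass (0.09, adjusted p = 0.138). ABHD13, the nearest tested gene on 1 side of IRS2 at 1518 kb, was lower (-0.30, adjusted p = 0.0382), a call lost in 6 of 16 alternatives (0.0195 to 0.127), among them without any 1 siCDK12 library (0.0671 to 0.108) or siCtrl replicate 2 (0.127) or 3 (0.0984). RHBDD1, which lies 0.339 kb from IRS1, had 3.55 ± 0.0379 FPKM with siCDK12 and 3.94 ± 0.14 FPKM with siCtrl and did not pass (log2 fold change -0.15, adjusted p = 0.145).

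The members differ widely in genomic length. IGF1R spans 316 kb, INSR 182 kb and IGF2R 142 kb, of which only IGF2R was above the filter and was tested, and it had no call. Of the called members IRS1 spans 68.5 kb and IGFBP4 14.3 kb, and IRS2 (33.9 kb), IGFBP2 (31.6 kb) and IGFBP5 (23.4 kb), which had no call, lie between them. Over all genes tested, 13.6% of those spanning 100 kb or more were lower with siCDK12, beside 12.4% of those of 20 to 100 kb and 11.5% of shorter ones. The share higher was 12.1% at 100 kb or more, 15.7% at 20 to 100 kb and 18.4% in shorter genes.

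By Pearson correlation of log2 levels over the 6 libraries, the gene closest to IGFBP4 among 11532 was PPP1R10, a regulatory subunit of protein phosphatase 1 (r = 0.9999). PPP1R10 stood at 32.9, 32.16 and 31.25 FPKM with siCDK12 against 43.54, 46.87 and 46.13 FPKM with siCtrl. The gene closest to IRS1 was CMBL, a hydrolase (r = 0.989), with 7.48, 7.59 and 8.08 FPKM with siCDK12 against 8.84, 9.07 and 8.44 FPKM with siCtrl. With 6 libraries in 2 groups and so many genes compared, such values describe these libraries only.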
